A study of Mus musculus with 75 samples.

Results

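Open chromatin of cultured mouse skin fibroblasts was followed over passaging by ATAC-seq, and the regions described here had a peak at passage 1 (P1), none at passage 3 (P3) and a peak again at passage 7 (P7). Overlapping peaks of all 13 ATAC-seq samples on the autosomes and the X chromosome were merged into 306843 union regions, and a region was present in a sample when it overlapped a peak there. A region was taken when it was present in 3 or more of the 4 P1 samples, in 0 of the 3 P3 samples and in 2 or more of the 3 P7 samples. This gave 8495 of the 306843 regions, which are called the regained regions. They made up 5.74% of the 148076 regions open at P1, which is the share the choice itself fixes, and covered 3.91 Mb in all. Because the choice used the peaks of P1, P3 and P7, the presence and strength of the regions at these passages are a description without a test. The peaks of passage 5 (P5), the sequence of the regions and the RNA-seq data were not used in the choice.

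The cells were skin fibroblasts of 2-month-old female C57BL/6 mice, untreated, collected at P1, P3, P5 and P7 while they were passaged towards replicative senescence. For ATAC-seq there were 4 samples at P1 and 3 at each later passage, and for RNA-seq 4 libraries at every passage. The labels number the replicates but do not say whether they came from separate animals or cultures, so the p-values measure only the spread between these samples. The cells were a primary culture and not a purified population, and passage was both time in culture and number of divisions.

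ATAC-seq finds DNA that a transposase can reach, which in most cells means promoters and enhancers that are free of nucleosomes. Distal open sites are mostly bound by transcription factors of the cell type and its state, and in fibroblasts these include AP-1, TEAD factors and TWIST factors, which bind E-boxes. Normal fibroblasts that divide for long in culture enter replicative senescence, in which they stop dividing and secrete chemokines, cytokines and matrix proteases.

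The regained regions with the strongest peaks away from start sites are shown first, since the E-box, whose share among the regained regions is given further on, recurs in them. The sequences are the summit in the P1 sample with the strongest peak and 100 bases on each side, from the forward strand of GRCm38 (mm10), and capitals mark every match to the motifs whose shares are given after the peak values. The first 6 lie nearest to the start sites of Prkg1 (cGMP-dependent protein kinase), Trabd2b (a Wnt-cleaving protease of the membrane), Mrps22 (a protein of the mitochondrial ribosome), Ero1l (an oxidase of the endoplasmic reticulum), Kitl (the ligand of the KIT receptor) and Agtr1b (an angiotensin II receptor), and each holds the TWIST E-box, CATCTG or CAGATG on the other strand. The region near 4933430H16Rik is shown as 1 of the 2 among the 12 strongest without that E-box. The last 3 sequences lie within 1000 bases of the start sites of Pfkfb2, Bola3 and Aldh1a7 and hold the TWIST E-box, while the other 4 of the 7 named start-site regions (near Prr5l, Trim13, Vstm2a and Nfam1) do not.

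Prkg1, chr19:31471812-31472012: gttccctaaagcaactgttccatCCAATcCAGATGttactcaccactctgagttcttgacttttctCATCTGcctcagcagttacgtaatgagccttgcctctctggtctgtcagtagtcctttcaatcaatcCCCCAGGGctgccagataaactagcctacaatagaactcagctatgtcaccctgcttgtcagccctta
Trabd2b, chr4:114298652-114298852: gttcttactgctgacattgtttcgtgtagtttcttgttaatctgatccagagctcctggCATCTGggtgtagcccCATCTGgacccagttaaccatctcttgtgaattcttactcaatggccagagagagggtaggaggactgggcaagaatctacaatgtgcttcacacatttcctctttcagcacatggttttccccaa
Mrps22, chr9:98590009-98590209: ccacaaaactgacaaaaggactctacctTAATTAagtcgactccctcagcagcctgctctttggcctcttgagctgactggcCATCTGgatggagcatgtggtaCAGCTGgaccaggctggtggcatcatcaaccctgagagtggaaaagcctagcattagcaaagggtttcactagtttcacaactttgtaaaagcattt
Ero1l, chr14:45291714-45291914: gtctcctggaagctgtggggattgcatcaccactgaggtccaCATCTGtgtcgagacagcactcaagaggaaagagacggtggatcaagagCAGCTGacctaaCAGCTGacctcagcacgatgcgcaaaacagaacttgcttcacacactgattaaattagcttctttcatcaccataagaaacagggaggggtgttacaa
Kitl, chr10:100084933-100085133: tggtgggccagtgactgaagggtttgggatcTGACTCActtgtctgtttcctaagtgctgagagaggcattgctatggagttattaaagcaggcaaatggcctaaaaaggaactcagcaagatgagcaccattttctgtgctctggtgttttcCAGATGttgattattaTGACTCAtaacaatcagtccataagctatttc
Agtr1b, chr3:20522980-20523180: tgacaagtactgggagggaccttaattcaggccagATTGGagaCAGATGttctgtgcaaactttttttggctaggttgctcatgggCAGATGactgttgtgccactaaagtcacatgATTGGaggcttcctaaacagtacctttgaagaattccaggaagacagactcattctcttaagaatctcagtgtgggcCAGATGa
4933430H16Rik, chr7:83036479-83036679: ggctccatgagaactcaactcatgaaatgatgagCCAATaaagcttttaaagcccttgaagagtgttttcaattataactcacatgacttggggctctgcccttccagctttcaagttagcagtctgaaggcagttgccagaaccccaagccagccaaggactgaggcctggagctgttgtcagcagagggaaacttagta
Pfkfb2, chr1:130714122-130714322: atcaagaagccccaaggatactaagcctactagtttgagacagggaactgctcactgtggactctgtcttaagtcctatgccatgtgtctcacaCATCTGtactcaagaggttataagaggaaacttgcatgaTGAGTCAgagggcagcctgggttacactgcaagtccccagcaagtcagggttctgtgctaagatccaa
Bola3, chr6:83348005-83348205: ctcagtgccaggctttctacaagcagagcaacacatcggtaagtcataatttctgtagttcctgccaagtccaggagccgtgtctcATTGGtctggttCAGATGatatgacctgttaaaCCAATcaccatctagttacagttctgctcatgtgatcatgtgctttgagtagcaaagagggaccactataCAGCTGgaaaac
Aldh1a7, chr19:20727558-20727758: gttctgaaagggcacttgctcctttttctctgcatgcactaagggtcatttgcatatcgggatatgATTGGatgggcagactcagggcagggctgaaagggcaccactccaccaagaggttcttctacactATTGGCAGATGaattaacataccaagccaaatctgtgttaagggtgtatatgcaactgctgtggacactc

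The P3 samples had the fewest peaks of all passages, which bears on any region that is absent there. The lists held 168970 to 186552 peaks at P1, 142372 to 155668 at P3, 182390 to 207956 at P5 and 200363 to 231548 at P7. The means were 176020 ± 7690 (SD, n = 4) at P1, 151099 ± 7561 (n = 3) at P3 and 217730 ± 15893 (n = 3) at P7, and the samples of P3 did not overlap those of P1 or P7. The exact permutation test on the peak number gave p = 0.0571 against P1 and p = 0.1 for P7 against P3 (two-sided), which are the smallest values it allows with 4 against 3 and 3 against 3 samples. Reads per region are not part of these lists, so sequencing depth is unknown for the ATAC-seq samples.

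At P5, which was not used in the choice, the peaks were back at most of the regained regions. A peak was present at 69.8%, 76.5% and 53.1% of the 8495 regions in the 3 P5 samples, a mean with an SD of 12.1 percentage points. P5 replicate 3, which had the shortest list of that passage, was the lowest. In all, 3435 regions were present in 3 P5 samples, 2532 in 2, 1572 in 1 and 956 in 0, so that 5967 (70.2%) were open in 2 or more. Of the 116933 regions that were open at P1, P3 and P7 (kept regions), 99.2% were open in 2 or more P5 samples. Of the 4018 regions open at P1 and without a peak at both P3 and P7, 12.2% were. Of all 148076 regions open at P1, 91.3% were. The regained regions thus lay between the kept and the lost regions at P5. Those groups were themselves chosen by their P3 and P7 peaks, so this order follows in part from the choice and was not tested.

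**Figure D1:**
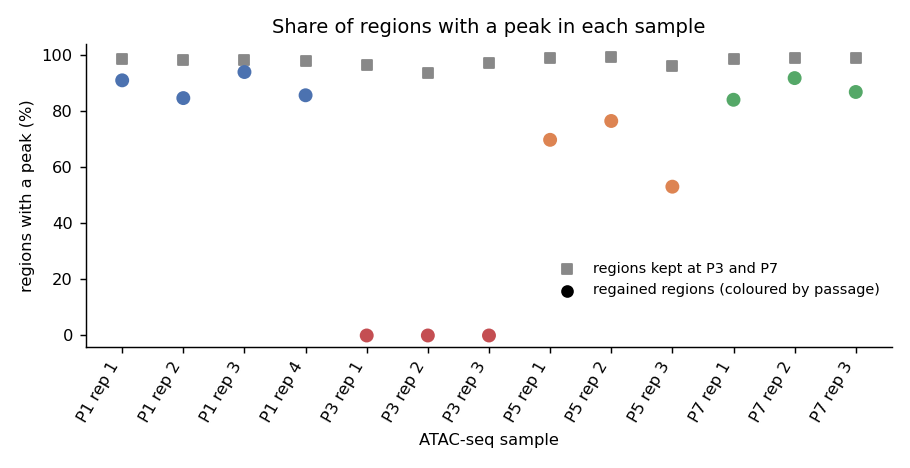
Share of regions with a peak in each ATAC-seq sample (vertical axis, percent), by passage, for the regained regions (circles) and the kept regions (squares), with 1 point per sample. The P1, P3 and P7 points follow from how the regions were chosen, and the P5 points of the regained regions lie at 69.8%, 76.5% and 53.1%, below the kept regions.

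The regained regions were weak peaks wherever they were present. Strength is given as the percentile of the −log10 p of a peak among all peaks of the same sample. Over the P1 samples the median percentile of the regained regions was 30.5, 27.9, 35.1 and 28.0, against 65.6 to 68.3 for the kept regions. At P7 it was 30.5, 34.9 and 32.4, against 70.4 to 73.7. At P5 the regions that were present had median percentiles of 27.3, 30.4 and 27.6, against 68.4 to 71.5. The peak height, as fold enrichment over the local background, had a median between 3.28 and 3.56 in the P1 samples and between 3.69 and 4.23 in the P7 samples, against 6.28 to 6.48 and 7.79 to 9.25 in kept regions. The merged regions were also narrower, with a median width of 408 bases against 812.

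Regions with a peak in more P5 samples were stronger at both P1 and P7. The 956 regions without a P5 peak had a median percentile of 26.4 over the P1 samples and 21.5 over the P7 samples. The 3435 regions present in 3 P5 samples had 32.0 at P1 and 38.0 at P7. These strengths come from the passages used in the choice and are not tested.

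The share of P1 regions without a P3 peak went down with their strength at P1, taken as the mean percentile over the 4 P1 samples with 0 where there was no peak. Among all P1 regions in the lowest 10 percentiles, 41.3% had no P3 peak, and the share was 27.4% between the 20th and 30th percentile, 9.20% between the 40th and 50th, and 0.965% between the 60th and 70th. At P5 the corresponding shares without a peak were 25.1%, 11%, 2.61% and 0.264%, and at P7 26.2%, 9.26%, 2.15% and 0.246%. Weak P1 regions were thus missing more often than strong ones at every later passage, and most often at P3. Of the regained regions, 124 stood between the 60th and 70th percentile at P1, 12 between the 70th and 80th, 2 between the 80th and 90th and 0 higher, and the 12 and the 2 were all open in 2 or more P5 samples.

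**Figure D2:**
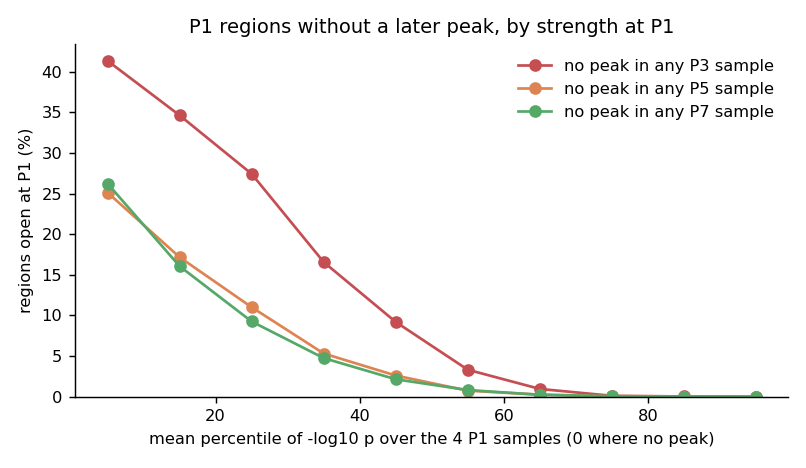
Share of the regions open at P1 that had no peak at P3, P5 or P7 (vertical axis, percent), by the mean percentile of −log10 p over the P1 samples (horizontal axis, bins of 10). In the weakest bin 41.3% lacked a P3 peak, 25.1% a P5 peak and 26.2% a P7 peak, and all 3 shares are under 1% from the 60th percentile on.

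Absence at P3 did not hold in full for a P3 sample that the choice had not used. When a P3 sample was left out of the choice, 12071, 11149 and 12572 regions met the rule on the other 2, and 29.6%, 23.8% and 32.4% of these had a peak in the sample left out. Among the regions present in the other 2 P3 samples, 93.1% to 96.9% were present in the one left out, so the regions chosen for their absence were found far less often. The same exercise with P5 in place of P3 gave 42.8%, 51.3% and 26.6%. Just outside the rule lay 10307 regions with a peak in exactly 1 P3 sample, 4682 in exactly 2 P1 samples and 3038 in exactly 1 P7 sample, with median P1 percentiles of 32.7, 20.1 and 25.6. Just inside it, the 3787 regions in exactly 3 P1 samples had a median P1 percentile of 24.8, and the 3160 in exactly 2 P7 samples 27.4.

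The length of the lists moved with the number of regained regions. With the 142372 strongest peaks of every sample, 2440 regions met the rule (2.3% of the 106175 open at P1 and P7, against 6.26% with all peaks), and 2162 of them lay inside a regained region of the full lists. With these equal lists, the pattern with P5 in the place of P3 (open at P1 and P7, absent at P5) held 1147 regions (1.08%), against 1514 (1.12%) with all peaks. A dip at P3 was thus more frequent than a dip at P5 with both kinds of list, by a smaller margin in equal lists. Over the samples, this difference rests on 3 P3 and 3 P5 samples and was not tested.

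Within the regained regions the P1 and P7 peaks lay at the same place, which largely follows from merging overlapping peaks into narrow regions. In all 8495 regions a P1 peak overlapped a P7 peak, as the merging and the choice nearly fix. The summits of both passages lay a median of 15 bases apart, with 89.1% within 50 bases, in regions with a median width of 408 bases. In kept regions the median was 12 bases and the share 90.1%. For the 7539 regained regions with a P5 peak, the P1 and P5 summits lay a median of 16 bases apart.

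The strongest regained regions show the peak values at single sites, all of them chosen by their P1 and P7 values. The region chr19:31471718-31472309 in an intron, 192061 bases from the nearest start site, of Prkg1, had a fold enrichment of 11, 10.2, 7.67 and 12 in the P1 samples, 11.8, 12.3 and 8.99 at P5 and 10.4, 12.2 and 15.4 at P7, with no peak in the 3 P3 samples. By fold enrichment it was therefore as high at P5 as at P1. By percentile it was at 73.0, 76.2 and 72.3 at P5, against 81.0, 77.3, 69.7 and 81.8 at P1. The region in a coding exon near Mrps22 (chr9:98589655-98590454) had 7.44, 9.66, 10.9 and 10.2 at P1, 12.6, 8.46 and 2.85 at P5, and 8.12, 11.7 and 10.8 at P7. Here P5 replicate 3 stood below the other samples. The intronic region chr10:100084796-100085271, 68975 bases from the start site of Kitl, had 7.93, 8.99, 9.31 and 7.25 at P1, 7.60, 6.43 and 3.45 at P5, and 7.92, 10.5 and 11.5 at P7.

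Others of the 12 strongest differed more between passages. The region near Trabd2b (chr4:114298322-114298967, intergenic, 107757 bases from the start site) had 8.86, 10.8, 10.7 and 10.6 at P1 and 7.46, 8.10 and 5.39 at P5, with every P5 sample below every P1 sample. The region in an intron near Ero1l (chr14:45291566-45292274) had 4.94, 7.90, 8.76 and 6.71 at P1 and 14.5, 13.6 and 10.8 at P7. Every P7 sample was above every P1 sample by fold enrichment. By percentile P7 replicate 3, at 73.4, was below P1 replicate 3, at 74.4. The region near Dpysl3, a protein of axon guidance, on chromosome 18 (start 43340773, end 43341398) had 9.29, 11.3, 13.7 and 10.02 at P1 and 5.97, 5.12 and 4.05 at P5. All 12 were present in 4 P1, 3 P5 and 3 P7 samples.

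The regained regions lay far from start sites. Only 175 of them (2.06%) were within 1000 bases of an annotated start site, against 13.6% of the kept regions and 7.18% of all union regions. Intergenic regions made up 56.8% and introns 39.0%, against 42.7% and 41.3% of the kept regions, and the median distance to a start site was 49611 against 24459 bases. The 4018 regions without a peak at P3 and P7 had 5.72% near a start site and a median distance of 51933 bases. The share of the P1 regions that were regained ran from 4.52% on chromosome 11 to 7.27% on the X chromosome. The nearest P3 peak lay a median of 4928 bases away, and the nearest other regained region 90629 bases, so that most stood alone.

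Their sequence held less GC and fewer CpG sites than that of the kept regions. Over the summit and 100 bases on each side the mean GC content was 45.1%, against 49.2% in kept regions and 47.2% in all union regions, and 0.909 CpG per 100 bases against 2.07. Promoters are rich in both, and among regions more than 1000 bases from start sites the mean GC was 45% against 47.2%. Within bands of P1 strength the gap was smaller, with 45.3% against 46.8% below the 20th percentile, 44.8% against 46.5% from the 20th to the 40th and 44.8% against 46.7% from the 40th to the 60th, each against the other P1 regions. Repeats, as masked in the assembly, took up 50% or more of the window in 10.3% of the regained regions, against 4.72% of the kept, 8.35% of all union regions and 12.8% of the regions lost at both P3 and P7.

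Motifs were counted in the same window of the 8320 regained regions that lay more than 1000 bases from a start site, on both strands, as the share of regions with at least 1 match. The TWIST E-box (CATCTG) was in 30.3%, against 22.9% of the kept and 22.4% of all such union regions. The MyoD E-box (CAGCTG) was in 18.8%, against 15.7% and 14.9%. The TEAD motif (GGAATG) went the other way, with 14.7% against 22.5% and 20.3%. The 3788 distal regions lost at P3 and still without a peak at P7 had shares close to those of the regained regions, with the TWIST E-box in 28.1%, the MyoD E-box in 17.2% and TEAD in 13.4%. The high E-box and low TEAD shares were thus found in both sets of regions that had no peak at P3. These shares count regions of 1 set of samples and no test over regions was made.

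Other motifs of factors active in fibroblasts and other cell types differed in either direction. AP-1 (TGACTCA or TGAGTCA, which are the 2 strands of 1 site) was in 26.0%, against 30.2% of the kept and 23.1% of all distal union regions, and in 19.7% of the distal regions lost at both P3 and P7. NFY (CCAAT) was in 27.2%, against 24.1% and 24.5%, and RUNX (TGTGGTT or TGCGGTT) in 8.70%, against 11.1% and 10.5%. The homeobox motif of LHX factors (TAATTA) was in 6.54%, against 4.52% and 4.66%, and C/EBP (TTGCGCAA or TTGCACAA) in 2.46%, against 1.49% and 1.33%.

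The remaining motifs were those of insulator and promoter factors and some rare strings. The CTCF core motif was in 8.47%, against 7.86% and 5.89%, and SP and KLF factors (GGGCGG) in 3.09%, against 5.52% and 3.995%. EBF (CCCNNGGG) was in 4.69%, against 6.96% and 5.97%, and ETS (CCGGAAG or ACAGGAAG) in 3.59%, against 4.44% and 3.98%. E2F (TTCCCGC or TTGGCGC, and likewise TTCGCGC, or the string TTGCCGC) was in 0.877%, against 1.69% and 1.32%, and the full palindrome of NFI was in 2 regained regions. Matches were counted separately for each motif, and those of NFY can share bases with those of NFI and E2F.

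**Figure D3:**
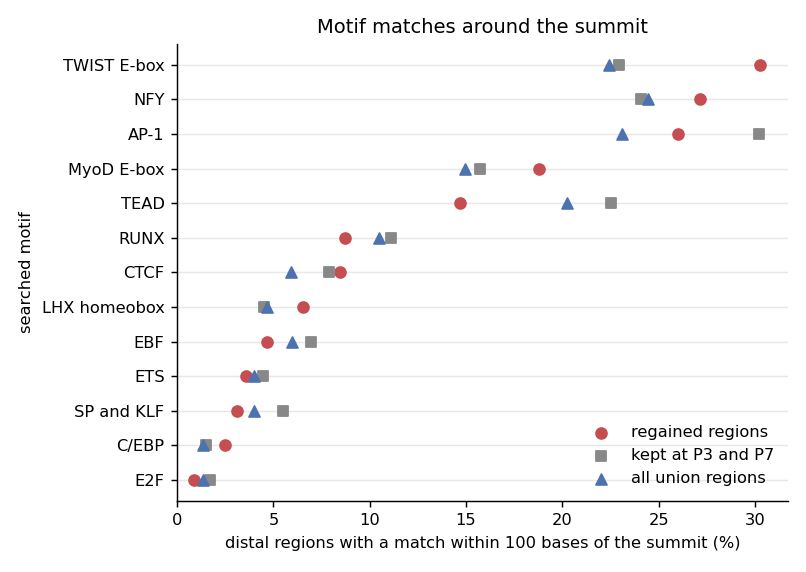
Share of distal regions with at least 1 match within 100 bases of the summit (horizontal axis, percent) for 13 of the motifs, in the regained, the kept and all union regions. The TWIST E-box is at 30.3% of the regained against 22.9% of the kept regions, and TEAD at 14.7% against 22.5%.

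The E-box share went up, and the TEAD share down, with the strength of the regained regions. Among distal regained regions below the 20th percentile at P1 the E-box was in 27.3%, from the 20th to the 40th in 29.6% and from the 40th to the 60th in 35.9%, while other distal P1 regions of these bands had 21.9%, 22.1% and 23.0%. TEAD was in 16.9%, 14% and 12.7% of the regained and in 19.7%, 20.6% and 19.8% of the other regions. Ranked by the mean percentile over the P1 and P7 samples, the E-box was in 10 of the 12 strongest distal regained regions, 53 of the strongest 100 and 370 of the strongest 1000. TEAD was in 0, 8 and 135 of these. Kept distal regions at or above the same percentiles had the E-box in 24.5%, 24.1% and 23.6%, and TEAD in 24.3%, 23.3% and 22.7%. Of the strongest 100 regained regions 99 were open in 2 or more P5 samples, and of the strongest 1000 there were 938.

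Matches lay close to the summits. In bins of 25 bases, 6.47% of the distal regained regions had a TWIST E-box at the summit, against 4.003% of the kept ones, while at 400 bases to the left and right the regained regions had 2.02% and 2.15% and the kept ones 2.12% and 2.12%. TEAD matches at the summit were in 2.66% of the regained and 4.51% of the kept regions. AP-1 matches at the summit were in 7.82% and 8.85%.

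**Figure D4:**
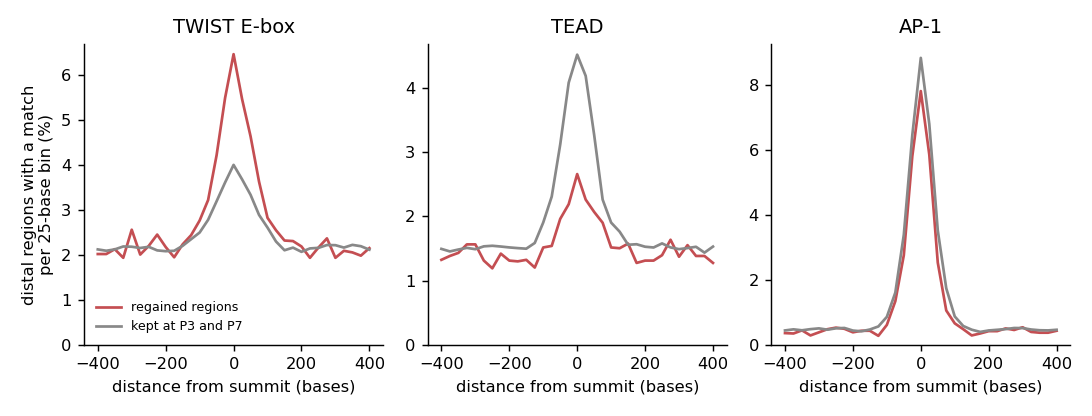
Share of distal regions with a match (vertical axis, percent per bin of 25 bases) by distance from the summit (horizontal axis, bases) for the TWIST E-box, TEAD and AP-1, in regained and kept regions. At the summit the E-box is at 6.47% of the regained and 4.003% of the kept regions, and TEAD at 2.66% and 4.51%, and the lines come together away from it.

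Return at P5 differed most with the AP-1 motif among the 4 motifs compared here. Of the 2189 regained regions with an AP-1 match, 64.6% were open in 2 or more P5 samples, against 72.2% of the 6306 without one. AP-1 was in 34.2% of the 956 regained regions without a P5 peak and in 23.7% of the 5967 that were open in 2 or more P5 samples. With the TWIST E-box the share was 71.1% against 69.9%, with TEAD 72.7% against 69.8%, and with the MyoD E-box 74.0% against 69.4%. In the pattern with a dip at P5 in place of P3 the E-box was in 27.2% of 1463 distal regions with all peaks and in 24.6% of 1110 with equal lists, against 30.3% and 32.5% of the regained regions. TEAD was in 13.3% and 14.1% there, against 14.7% and 13.5%, so that a low TEAD share was found with both patterns.

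RNA of the same passages was compared with these regions through the nearest start sites. Of the 24984 genes that were counted, 13442 were tested in 1 edgeR quasi-likelihood fit of 16 libraries, which held 13430229 to 15725823 counts each. The main contrast set P3 against the mean of P1 and P7, and a gene was called with a Benjamini-Hochberg adjusted p under 0.05 and a fold change over 2. It called 2.11% of the tested genes lower and 1.65% higher at P3. Those that were called lower and had every P3 library below every P1 and P7 library were 0.543% of the tested genes, and those called higher with every P3 library above were 0.231%. In bulk RNA, fewer cells of a type and less RNA per cell cannot be told apart.

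The genes near regained regions did not stand far from these levels. Of the 3721 tested genes with a regained region within 50000 bases of a start site, 92 (2.47%) were called lower at P3 and 49 (1.32%) higher, and 27 (0.726%) and 8 (0.215%) also had no overlap with the P1 and P7 libraries. The 9702 genes without one had 1.98% lower and 1.78% higher. The median log2 fold change was 0.01 in both groups. With 1, 2 and 3 or more regained regions nearby, the share called lower was 2.31% (71 of 3078), 3.06% (17 of 556) and 4.60% (4 of 87). The share called higher was 1.30%, 1.44% and 1.15%. Of the 87 genes, 0 were called lower with every P3 library below every P1 and P7 library. Their median log2 CPM was 3.58, against 4.53 over all tested genes.

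The separate steps were read side by side, and they share the P3 libraries. P3 against P1 called 6.58% of the tested genes lower and 2.4% higher, and of the genes near regained regions 8.01% (298) and 2.50% (93). By the number of regained regions nearby, the share lower at P3 than at P1 was 7.37%, 9.89% and 18.4% (16 of 87). The share higher at P3 than at P1 rose as well, with 2.31%, 3.24% and 4.60%. So did the share lower at P7 than at P3, with 7.15%, 8.27% and 12.6%. The genes near regions lost at both P3 and P7, and with no regained region nearby, had 10.5% lower. P7 against P3 called 4.44% of the tested genes higher and 7.41% lower, and 4.49% and 7.44% of the genes near regained regions. P5 against P3 called 0.841% higher and 3.05% lower, and 0.752% and 3.09% of these genes. The share of these genes that was higher than at P3 was thus near the level of all tested genes at both later passages.

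The RNA also carried cell type markers that moved with passage. Fibroblast markers were high throughout, with a summed level of 27414 to 28990 CPM in the P1 libraries and 42661 to 49050 at P3, and 1 of 11, Lum, was called lower at P3. The 12 macrophage markers summed to 345 to 534 CPM at P1, 49.4 to 68.0 at P3 and 35.8 to 57.1 at P7, and 5 of them were called lower. The 10 tested keratinocyte markers summed to 82.1 to 480 CPM at P1, 5.97 to 9.40 at P3 and 14.7 to 18.7 at P7, with 3 called lower, and the keratins Krt14 and Krt17 were at 0 in every P7 library. The 10 endothelial markers summed to 192 to 213 CPM at P1, 50.3 to 62.5 at P3 and 12.5 to 16.5 at P7. Skeletal muscle markers summed to 155 to 241 CPM at P1, 62.1 to 76.4 at P3 and 40.5 to 113 at P7, and adipocyte markers to 431 to 587, 230 to 413 and 128 to 309. Markers of Schwann cells and melanocytes summed to 93.0 to 103 CPM at P1 and 116 to 137 at P3. The part of these cells in the peaks that were missing at P3 was not tested.

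Regained regions at start sites were few. Of the 79 tested genes with one within 1000 bases, 3 were called lower (3.80%, against 2.11% of all tested genes) and 0 higher by edgeR. Vstm2a, an immunoglobulin-domain protein, had a regained region at chr11:16258392-16258702, 650 bases from its start site, with a fold enrichment of 3.2, 3.18, 3.63 and 2.66 at P1, no P5 peak, and 4.06, 3.15 and 3.27 at P7. Its RNA was at 1.71, 1.5, 3.08 and 1.79 CPM at P1, 0.394, 0.206, 1.23 and 0.439 at P3, 0.905, 0.553, 0.840 and 1.13 at P5, and 3.51, 1.77, 2.84 and 2.15 at P7. Every P3 library was below every P1 and P7 library (log2 fold change −1.97, SE 0.37, adjusted p = 0.000704).

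Aldh1a7, an aldehyde dehydrogenase, had a region that overlapped its start site (chr19:20727462-20728059), with 3.91, 5.23, 6.14 and 4.69 at P1, 1 P5 peak at 4.17, and 3.17, 5.17 and 3.93 at P7. Its RNA was at 1.30, 1.36, 1.91 and 0.681 CPM at P1, 0.723, 0.617, 1.23 and 1.32 at P3 and 3.05, 3.94, 4.30 and 2.60 at P7, so that P1 and P3 overlapped and P7 stood above both. It was called lower (log2 fold change −1.13, SE 0.32, adjusted p = 0.0134), and the call was lost without P3 replicate 2 (−0.97, adjusted p = 0.0556). Nfam1, an activating receptor of immune cells, was at 2.29 to 3.67 CPM at P1, 0.131 to 0.258 at P3 and 0 to 0.445 at P7. It was low at P3 and stayed low, although its region (chr15:83030803-83031296) had a peak in 2 P7 samples. Its call (log2 fold change −1.98, adjusted p = 0.0255) was lost without P3 replicate 1, 2 or 4 (adjusted p = 0.0520, 0.0630 and 0.0593) and without P7 replicate 4 (adjusted p = 0.26).

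The 4 genes named for start-site regions open in 3 P5 samples were picked among those whose RNA was not called, as for most of the 79. Pfkfb2, an enzyme that sets the rate of glycolysis, had a peak 200 bases from a start site with 3.39, 3.21, 2.99 and 3.06 at P1, 4.14, 4.08 and 3.35 at P5, and 3.00, 4.65 and 3.29 at P7. Its RNA was at 24.2 to 33.0 CPM at P1, 25.5 to 29.6 at P3 and 26.5 to 32.7 at P7, with a log2 fold change of −0.07 (SE 0.09). Bola3, of iron-sulfur cluster assembly, was at 18.5 to 19.9 CPM at P1, 18.4 to 22.6 at P3 and 28.4 to 43.7 at P7. Prr5l (a partner of mTOR complex 2) and Trim13 (a ubiquitin ligase) had log2 fold changes of −0.12 (SE 0.18) and 0.09 (SE 0.13).

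Of the pathway lists, that of secreted inflammatory genes held the most genes called lower at P3, and most genes of that list had a regained region nearby. Of 35 tested secreted inflammatory genes, 27 had a regained region within 100000 bases, 7 were called lower (6 of them among the 27: Cxcl5, Ccl2, Ccl8, Ccl11, Mmp3 and Mmp10) and 0 higher, and the median log2 fold change of the 35 was −0.29. Ccl2, Ccl8 and Ccl11 had 1 regained region in common, and Mmp3 and Mmp10 another, so these genes are not separate cases. For the 27 genes the median log2 fold change was −0.29 as well. The summed level of the whole list was 6920 to 8173 CPM at P1 and 7187 to 7471 at P3, within the P1 range. At P7 it was 10435 to 12310 CPM. Of all 13442 tested genes, 6380 had a regained region within 100000 bases, and 158 of these (2.48%) were called lower. The summed macrophage markers were lower at P3 than at P1, and their part in the calls of this list was not tested.

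Ccl11, the eosinophil chemoattractant eotaxin, was at 128, 123, 168 and 106 CPM at P1, 13.9, 16.5, 12.8 and 14.1 at P3, 15.6, 21.2, 16.9 and 25.1 at P5 and 71.4, 28.2, 43.9 and 46.0 at P7. Every P3 library was below every P1 and P7 library (log2 fold change −2.46, SE 0.20, adjusted p = 1.28e-07), and P7 did not reach the level of P1. Its neighbour Ccl8, a monocyte chemoattractant, was at 227, 186, 253 and 175 CPM at P1, 55.8, 57.5, 49.9 and 46.7 at P3, 87.1, 112, 75.9 and 124 at P5 and 223, 120, 142 and 170 at P7 (log2 fold change −1.82, SE 0.16, adjusted p = 2.66e-07). From P3 to P5 the log2 fold change of Ccl8 was 0.93 (SE 0.18, adjusted p = 0.000848), just under the size needed for a call, and that of Ccl11 was 0.46 (SE 0.22, adjusted p = 0.124).

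Of the regained regions in this chemokine cluster, 1 lay at chr11:82023793-82024363, between genes and 11214 bases from the start site of Ccl2, 33469 from that of Ccl11 and 90822 from that of Ccl8. It had a fold enrichment of 4.46, 4.13, 4.12 and 4.18 at P1, 2.91 and 3.33 in 2 P5 samples, and 2.55, 4.27 and 2.84 at P7. A further region, chr11:81974679-81974987, lay 82845 bases from the start site of Ccl11 and 6283 bases from the nearest one, that of Asic2. It had 3.89, 4.71 and 3.41 in 3 P1 samples, 8.28, 8.70 and 5.39 at P5 and 6.07, 5.96 and 7.14 at P7. By fold enrichment it was thus higher at P5 and P7 than at P1 in every sample with a peak. By percentile P7 replicate 2, at 48.5, was below P1 replicate 3, at 49.2.

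Cxcl5, a neutrophil chemoattractant, was at 20.5, 26.7, 51.7 and 9.28 CPM at P1, 8.15, 13.6, 11.9 and 7.31 at P3 and 57.9, 29.4, 46 and 16 at P7, with overlap through replicate 4 of P1 (log2 fold change −1.63, SE 0.40, adjusted p = 0.00517). It had 3 regained regions within 100000 bases. The matrix protease Mmp3 and the acute-phase protein Saa3 were called lower but did not return. Mmp3 was at 633 to 1083 CPM at P1, 36.4 to 63.8 at P3 and 39.7 to 59.5 at P7. Saa3 was at 249 to 731, 1.02 to 2.58 and 0 to 1.15 CPM, and its call was lost without P7 replicate 1 (log2 fold change −1.82, adjusted p = 0.236).

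Other genes called lower near regained regions divided in the same way into those that returned and those that did not. Cpxm1, a carboxypeptidase-like secreted protein, was at 176, 151, 216 and 103 CPM at P1, 67.0, 63.2, 51.5 and 25.6 at P3, 71.2, 117, 120 and 79.4 at P5 and 259, 180, 229 and 130 at P7. P3 was below P1 and P7 in every library (log2 fold change −1.79, SE 0.25, adjusted p = 4.19e-05), and its regained region lay 10557 bases from the start site (chr2:130408186-130408510). Cd24a, a surface glycoprotein, was at 19.4 to 28.1 CPM at P1, 2.97 to 4.73 at P3, 1.46 to 3.04 at P5 and 7.94 to 17.1 at P7 (log2 fold change −2.21, SE 0.21, adjusted p = 4.34e-07). Its 2 regained regions within 50000 bases had peaks in 2 and 1 P5 samples.

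The desmosome gene Dsp and Perp, which are keratinocyte markers, were low at P3 too. Dsp was at 13.3 to 64.2 CPM at P1, 0.206 to 0.951 at P3 and 1.37 to 5.64 at P7, with P1 replicate 3 above the other libraries (log2 fold change −3.70, SE 0.57, adjusted p = 0.000108). Perp was at 5.26 to 17.2, 0.451 to 1.91 and 4.46 to 6.17 CPM (log2 fold change −2.38, SE 0.38, adjusted p = 0.000154), and had 3 regained regions within 100000 bases. The keratinocyte list as a whole stood at 14.7 to 18.7 CPM at P7, below its P1 range. Dpep1, a dipeptidase, was at 20.6 to 29.2, 3.22 to 5.01 and 4.68 to 8.55 CPM, so that P7 overlapped P3.

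Wnt pathway genes gave 2 calls among 49 tested genes of the TGF-beta, BMP and Wnt list, both with a regained region within 100000 bases, as had 27 of the 49 (2.11% of all tested genes were called lower). Sfrp1, a secreted Wnt inhibitor, was at 55.5, 61.0, 57.9 and 50.7 CPM at P1, 34.9, 38.0, 33.4 and 20.3 at P3, 55.2, 75, 60.4 and 32.8 at P5 and 99.5, 71.6, 116 and 40.4 at P7. It was called lower at P3 (log2 fold change −1.10, SE 0.24, adjusted p = 0.00203), though without P3 replicate 4 or P7 replicate 3 its log2 fold change was −0.94 and −0.99, under the threshold of size. Its regained region (chr8:23469805-23470640) had 2.78, 2.31, 3.62 and 2.88 at P1, 5.70, 4.65 and 4.65 at P5 and 3.83, 5.02 and 5.24 at P7. Axin2, a target and inhibitor of Wnt signalling, was at 9.17 to 12.3 CPM at P1, 1.10 to 1.74 at P3, 0.905 to 2.18 at P5 and 1.76 to 4.01 at P7, and thus stayed far below P1 (log2 fold change −1.72, SE 0.25, adjusted p = 6.10e-05).

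Fewer genes near regained regions were called higher at P3 (49, 1.32%) than lower (92, 2.47%), as among all tested genes (1.65% and 2.11%). Npy1r, a receptor of neuropeptide Y, was at 5.68, 6.39, 4.31 and 6.62 CPM at P1, 18.5, 24.7, 18.3 and 29.8 at P3, 16.4, 14.2, 11.2 and 15.6 at P5 and 5.57, 7.25, 6.30 and 6.98 at P7 (log2 fold change 1.89, SE 0.14, adjusted p = 5.52e-08). Cntn2, a neuronal adhesion protein, was at 3.70 to 5.14 CPM at P1, 16.5 to 20.8 at P3, 7.40 to 11.3 at P5 and 5.19 to 10.5 at P7 (log2 fold change 1.61, SE 0.16, adjusted p = 5.77e-07). In both, every P3 library was above every P1 and P7 library, against the direction of the peaks nearby. Their regions lay 47758 bases (chr8:66745180-66745676) and 18663 bases (chr1:132523965-132524277) from the start sites.

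Cenpf, Parpbp, Anln, Sgo1 and Birc5, which were also called higher at P3, were genes of cell division with like levels at P1 and P3 and lower levels later. Of 48 tested cell cycle genes 14 were called higher and 0 lower, with a median log2 fold change of 0.55, and 8 of the 14 were among the 21 with a regained region within 100000 bases. Mki67, the marker of dividing cells, was at 312 to 334 CPM at P1, 239 to 330 at P3 and 18.2 to 25.7 at P7. Cenpf, a kinetochore protein, was at 72.4 to 82.8, 59.9 to 92.1 and 5.71 to 7.38 CPM. For these genes the call reflects the level of P7, since P3 overlapped P1. Parpbp, Anln, Sgo1 and Birc5 were not called for P3 against P1 either, with adjusted p between 0.243 and 0.918 in edgeR.

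The lists of regulators and structural genes held few calls. Of 52 tested mesenchymal transcription factors 1 was called lower and it had no regained region within 100000 bases, and of 15 AP-1 factors, 21 TEAD and Hippo pathway genes and 36 actin and focal adhesion genes 0 were called in either direction by edgeR. Of 45 extracellular matrix genes 1 was lower and 2 higher. The lower one was Lum, a collagen-binding proteoglycan, at 47.8 to 78.2 CPM at P1, 6.51 to 16.6 at P3 and 9.41 to 23.6 at P7, with 4 regained regions within 100000 bases. Its call (log2 fold change −1.17, SE 0.23, adjusted p = 0.00120) was lost without P3 replicate 4 (−0.94).

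**Figure D5:**
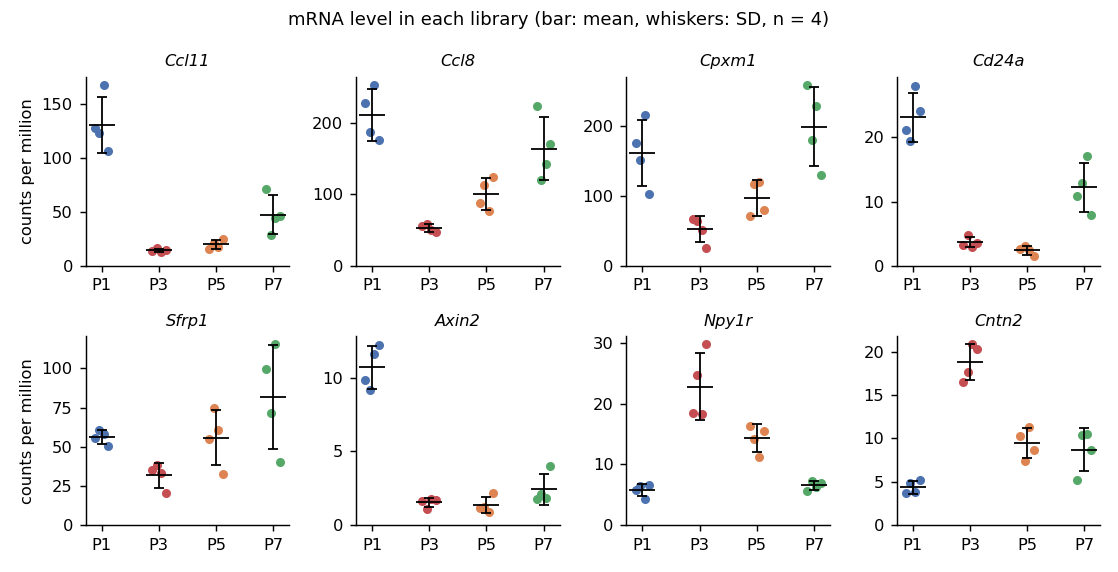
RNA level in each library (vertical axes, CPM from 0, 1 scale per gene) by passage for 8 genes with a regained region within 100000 bases, with 1 point per library and the mean ± SD (n = 4). Ccl11, Ccl8, Cpxm1, Cd24a, Sfrp1 and Axin2 lie lower in the 4 P3 libraries than in any P1 or P7 library, and Npy1r and Cntn2 lie higher. For Axin2 the highest P3 library (1.741 CPM) nearly touches the lowest P7 library (1.756 CPM).

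The macrophage markers Cd68, Ptprc, Fcer1g and Lyz2 were called lower and stayed low. The fifth macrophage marker called lower, Csf1r, the receptor of colony-stimulating factor 1, had no regained region within 100000 bases and is named after its values were seen. It was at 17.1 to 24.2 CPM at P1, 8.30 to 9.51 at P3, 6.55 to 9.30 at P5 and 18.6 to 24.6 at P7, with every P3 library below every P1 and P7 library (log2 fold change −1.26, SE 0.12, adjusted p = 5.66e-07, edgeR). Cd68 was at 27.6 to 42.1 CPM at P1, 2.41 to 3.22 at P3 and 1.22 to 2.54 at P7, and Ptprc at 7.27 to 8.08, 0.322 to 0.549 and 0.0769 to 0.305. The regained region nearest to Cd68, in the start site window of another gene, was present in 3 P7 samples. The calls of Fcer1g (log2 fold change −1.14, adjusted p = 0.0465) and Lyz2 (−1.04, adjusted p = 0.00127) were lost without single libraries, Fcer1g without each of 9 libraries (adjusted p up to 0.257) and Lyz2 without P3 replicate 3 or 4 or P7 replicate 4 (−0.89 to −0.98). The fatty acid transporter Cd36 was at 47.2 to 71.2 CPM at P1, 2.10 to 4.60 at P3 and 0 to 0.0763 at P7, and Cldn5, a tight junction protein of endothelium, at 4.89 to 8.15, 1.30 to 1.64 and 0, so that their call as higher at P3 came from P7.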

How the data were processed

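ATAC-seq (13 samples) and RNA-seq (16 libraries) of passages 1, 3, 5 and 7 were used, and the methylation data were not analysed here. For RNA-seq, trimming by Trimmomatic 0.39 and alignment by HISAT2 2.2.1 (genome mm10) preceded the raw counts per gene that the authors deposited, made with HTSeq 0.12.4 without strand, so overlapping and antisense genes are uncertain. For ATAC-seq the authors aligned with Bowtie2, removed duplicates and called peaks with MACS2 in each sample. The deposited lists give for every peak the fold enrichment over the local background and the −log10 p and −log10 q of the caller within that sample, down to a −log10 p of 2.

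Summits of 1 peak were merged. Start sites and sequence came from the RefSeq annotation of GRCm38 (102 of 24984 gene symbols were not matched). Counts were filtered with filterByExpr and fitted in 1 model of 16 libraries with edgeR 4.0.16 (TMM scaling, quasi-likelihood test, Benjamini-Hochberg adjustment) in R 4.3.3. The common biological coefficient of variation was 0.129, and replicates differed by more than counting noise (chi-square per degree of freedom 4.08 to 43.8 over 24 pairs). DESeq2 1.42.0, other filters, the replicate number as a block and leaving out each sample were alternatives. The regions, gene lists and motifs were chosen with earlier results of these data known.

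Named genes were the called genes with a region within 1000 bases and the 4 with the start-site regions most often open at P5, the 12 strongest distal regions, the 8 genes with the most regions within 100000 bases, the 8 lower and 8 higher called genes with a region within 50000 bases and a mean log2 CPM of 3 or more, and up to 4 called genes of each list. The result of 1 gene chosen by this rule is not reported here.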

Additional observations from a re-analysis of the deposited data

Results flagged for a closer look

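In groups of 4 libraries, 1 library was set apart when its gap to the nearest other library exceeded Dixon's limit. Of 161 groups of the named genes, 15 met this, and chance gives about 1 in 20. No cause was tested.

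At P1, Dsp was at 64.19 CPM in replicate 3 against 13.3 to 19.31 in the other libraries, and Perp, a further keratinocyte marker, was at 17.16 CPM in the same library against 5.26 to 5.89. Cd68 was at 27.6 CPM in P1 replicate 4 against 40.2 to 42.13. At P3, Lum was at 6.51 CPM in replicate 4 against 16.32 to 16.63, Sgo1 at 23.53 in replicate 1 against 26.34 to 26.69, and Nfam1 at 0.2579 in replicate 3 against 0.1314 to 0.1463. Also at P3, Axin2 was at 1.097 CPM and Dsp at 0.2058 in replicate 2, against 1.643 to 1.741 and 0.8382 to 0.9509, and Ptprc was at 0.3224 in replicate 3 against 0.512 to 0.5487.

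At P5, Birc5 was at 30.95 CPM in replicate 1 against 17.67 to 19.9 and Lum at 6.074 in that library against 9.399 to 9.68. Parpbp was at 4.567 CPM in P5 replicate 4 against 7.302 to 7.624, and Ptprc at 0.3972 there against 0 to 0.06462. At P7, Axin2 was at 4.008 CPM in replicate 4 against 1.756 to 2.083, and Cd36 at 0.07634 in replicate 1 against 0 in the others.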

How the results depend on the processing

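Of 710 alternatives for 40 named genes, 682 kept the call, 28 lost it and 0 reversed, and 32 genes kept it throughout. The choice of regions moved most, and the causes were not tested. With equally long lists there were 2440 regained regions in place of 8495 (1.4344% near a start site, E-box in 32.516% and TEAD in 13.514% of the distal ones). Presence in 4 of 4 P1 and 3 of 3 P7 samples gave 3139 (83.402% open at P5, E-box 33.322%). A −log10 q of at least 5 gave 2.4258% near a start site and TEAD in 13.737%, and a window of 500 bases 1.3537% near a start site. Leaving out each sample gave 6029 to 12572 regions, 66.283% to 77.542% open at P5, 1.7984% to 2.3693% near a start site, the E-box in 28.335% to 30.616% and TEAD in 14.486% to 15.198%. The rule then asked for more than 60% of the remaining P1 or P7 samples, or for no peak in the remaining P3 samples. It was thus looser without a P1 or P3 sample and stricter without a P7 sample, and these ranges include that change. With at least 10 counts in every library, calls were 254 for P3 against the mean of P1 and P7 (506 before), 487 for P3 against P1, 971 for P7 against P3 and 261 for P5 against P3, with 39 lower and 31 higher genes near regained regions, and 252 of the earlier 506 calls were no longer tested. DESeq2 called 543 genes, 499 of them shared with edgeR. Replicate numbers were not treated as pairs, since not every same-numbered pair correlated above 0.1 (−0.262 to 0.276, mean 0.0745, against −0.0246 for other pairs), although 10 of 16 libraries were closest to their own number, a hint from the data of shared variation. With the replicate block there were 520 calls, and Fcer1g was lost among the named genes (adjusted p = 0.0606, edgeR). ATAC-seq depth is unknown.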

Other observations

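The gene neighbourhood with the most regained regions lay on chromosome 5. Pilrb1 and Pilrb2, paired immunoglobulin-like receptors of myeloid cells, had 8 regained regions each within 100000 bases, and Cyp3a13, a cytochrome P450, and Gjc3, a connexin of glia, had 7 each. The closest run, chr5:137877906-137951708, held 7 regained regions in 73803 bases, of 13 regions open at P1, while 5 others there were kept. Of the 7, 2 were open in 2 or more P5 samples. Azgp1, Cttnbp2 and 4930473O22Rik had 6 and Gm35695 had 7. Of the 8 genes, Gjc3 and Cttnbp2 had enough counts to be tested, and neither was called. Gjc3 was at 2.92 to 5.88 CPM at P1, 4.58 to 5.98 at P3 and 2.70 to 8.83 at P7 (log2 fold change 0.22, SE 0.26).

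RNA of factors that bind the counted motifs was looked up after the motif shares were seen. Twist1 was at 81.2 to 89.2 CPM at P1, 54.7 to 70.4 at P3 and 57.7 to 70.3 at P7, and Twist2 at 125 to 141, 118 to 128 and 159 to 240. The log2 fold change of P3 against the mean of P1 and P7 was −0.28 for Twist1 (adjusted p = 0.0703, edgeR) and −0.41 for Twist2 (adjusted p = 0.00258). For Cebpa, Cebpb and Cebpd it was −0.62, −0.46 and −0.24 (adjusted p = 0.0142, 0.0370 and 0.269). For Tcf12, Tcf3 and Tcf4 it was 0.44, 0.02 and 0.13 (adjusted p = 0.000615, 0.860 and 0.277). All were under the size needed for a call. Tead1 was at 307 to 381 CPM at P1, 416.65 to 545 at P3 and 279 to 416.55 at P7. Every P3 library was above every P1 and P7 library, though P3 and P7 nearly touched. The log2 fold change was 0.38 (edgeR, adjusted p = 0.0115), under the size needed for a call. Tead2 was also higher at P3 (0.37, adjusted p = 0.00295, edgeR). In the same contrast Tead3 was at −0.11 (adjusted p = 0.407) and Tead4 at 0.24 (adjusted p = 0.446). Tead4 was lower at P3 than at P1 (−0.66, adjusted p = 0.0472, edgeR) and lower again at P7 than at P3 (−1.13, adjusted p = 0.00255).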
